A study of Mus musculus with 6 samples.

Results

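A set of 10 genes was followed that is used to describe lipid-laden macrophages of the alveolus. Gpnmb, Trem2, Ctsk, Atp6v0d2, Spp1, Mmp12, Lgals3 and Cd5l mark foamy or lipid-handling macrophages, and Siglecf and Itgax mark alveolar macrophages in general. The members were chosen by gene name with the signals of these same arrays already known, so their differences between genotypes are a description and not a test. Of these, 9 had probe sets that named that gene alone, 12 probe sets in all among the 45037 non-control probe sets of the array. No probe set was matched here to Spp1, the osteopontin gene.

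RNA came from alveolar type II cell isolates of lungs of mice aged 2 months, with 3 pools of RNA for each genotype and 1 pool on each array. All groups lacked Insig2 (Insig2-/-) and carried Insig1 flox/flox. The deleted group also carried SpC-rTTA and Otet-CRE, so that the surfactant protein C promoter drives a doxycycline-dependent Cre recombinase, and is named Insig1 ∆/∆ /Insig2 -/-. The controls lacked either SpC-rTTA or Otet-CRE, and doxycycline was given from E6.5 to E12.5 according to the labels of each group. No group had the whole Cre system with Insig1 intact, so the Cre system and the loss of Insig1 cannot be told apart. How many mice went into each pool is unknown here, and any p-value measures the spread between pools.

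Alveolar macrophages take up and break down surfactant lipid. When more lipid reaches them than they can clear, they become foamy, and foamy macrophages are known for lysosomal, lipid-sensing and matrix-degrading gene products such as those encoded here. INSIG1 and INSIG2 hold back the SREBP transcription factors, which drive lipid synthesis, so the design asks how type II cell isolates differ when that brake is lost. In bulk RNA, a change in the number of macrophages and a change in RNA per macrophage cannot be told apart.

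Promoter sequences are shown for the members whose brightest probe set was higher in every deleted pool than in every control pool, where a promoter entry was matched. They are the 250 bases before the RefSeq start on GRCm38.p6, written 5′ to 3′. Capitals mark a match to 1 of 4 motifs searched on both strands. The motifs were CACGTG (E-box) and CATGTG (M-box core), both bound by MITF-type factors, TGANTCA (AP-1) and GAGGAAGT (PU.1), and matches of different motifs may share bases. Mmp12 has another RefSeq start, and the start shown is the one further along the chromosome.

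Gpnmb (chr6:49036268-49036517, + strand): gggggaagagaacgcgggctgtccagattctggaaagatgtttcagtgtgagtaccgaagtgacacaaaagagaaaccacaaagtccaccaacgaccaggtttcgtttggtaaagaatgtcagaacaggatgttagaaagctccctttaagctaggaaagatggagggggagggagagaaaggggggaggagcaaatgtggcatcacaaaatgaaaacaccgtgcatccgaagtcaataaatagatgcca
Mmp12 (chr9:7347124-7347373, + strand): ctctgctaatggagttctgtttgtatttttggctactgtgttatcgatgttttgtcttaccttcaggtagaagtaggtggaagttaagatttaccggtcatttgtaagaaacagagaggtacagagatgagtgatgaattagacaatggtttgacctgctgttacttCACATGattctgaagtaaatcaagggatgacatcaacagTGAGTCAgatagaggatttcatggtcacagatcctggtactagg
Siglecf (chr7:43351091-43351340, + strand): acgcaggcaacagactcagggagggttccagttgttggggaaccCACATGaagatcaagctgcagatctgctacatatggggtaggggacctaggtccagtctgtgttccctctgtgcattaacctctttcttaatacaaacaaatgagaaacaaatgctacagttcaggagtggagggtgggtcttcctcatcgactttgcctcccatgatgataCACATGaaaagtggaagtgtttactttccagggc
Itgax (chr7:128129300-128129549, + strand): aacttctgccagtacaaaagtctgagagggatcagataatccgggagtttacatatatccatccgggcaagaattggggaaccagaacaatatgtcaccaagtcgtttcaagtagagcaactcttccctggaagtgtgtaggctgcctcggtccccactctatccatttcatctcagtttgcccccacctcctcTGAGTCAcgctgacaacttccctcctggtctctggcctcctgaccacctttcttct

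The Gpnmb window held none of the 4 motifs. The Mmp12 window held an M-box core and an AP-1 match, the Siglecf window a pair of M-box core matches, and the Itgax window an AP-1 match. The window before the other Mmp12 start, not shown, held a PU.1 match alone. Over the 11 promoters of 9 members, 3 had the AP-1 letters, 2 the M-box core, 2 the PU.1 letters and 0 the E-box. Among all 32851 promoters of that length, 6.75% had the AP-1 letters, 12.3% the M-box core, 2.44% the PU.1 letters and 6.02% the E-box. These matches describe letters in a window and say nothing of binding.

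Gpnmb was the member with the clearest difference. It encodes a transmembrane glycoprotein of lysosomes and phagosomes that marks foamy macrophages. Its bright probe set had signals of 707.9, 1116.2 and 806.3 in control replicates 1, 2 and 3 and of 3153.4, 3134.2 and 3107.3 in deleted replicates 1, 2 and 3. The 3 deleted pools were nearly equal, and each lay well above the highest control pool. Mean signal was 877 ± 213 in controls and 3132 ± 23.2 in deleted pools (SD, n = 3 each), which is 3.64-fold, or a log2 fold change of 1.86 ± 0.18 (moderated SE). Among 12952 genes tested, Gpnmb ranked 13th from the top by log2 fold change. Its other probe set was dim, with signals of 47.5 to 106.2 in controls and 159.4 to 167 in deleted pools, and showed the same order of groups (log2 fold change 1.34 ± 0.54).

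Atp6v0d2, a subunit of the membrane sector of the proton pump found mainly in osteoclasts and some macrophages, was higher in all deleted pools on both of its probe sets. The brighter had signals of 1351, 2162.2 and 1944.2 in control replicates 1 to 3 and of 3794.9, 3202.6 and 4030.8 in deleted replicates 1 to 3. The lowest deleted pool lay above the highest control pool, and the log2 fold change was 1.04 ± 0.19, or 2.05-fold. The dimmer probe set ran from 923.3 to 1715.8 in controls and from 2956.7 to 3413.7 in deleted pools, a log2 fold change of 1.23 ± 0.22. The widely expressed form of the same subunit, Atp6v0d1, had a log2 fold change of 0.31 ± 0.13.

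Ctsk, which encodes the collagen-degrading lysosomal protease cathepsin K, rested on a single pool. Its signals were 2659.5, 1864.4 and 1804.4 in control replicates 1 to 3 and 6782.3, 2593.5 and 2518.6 in deleted replicates 1 to 3. Only deleted replicate 1 stood above every control pool, and the other deleted pools lay below control replicate 1. The log2 fold change of 0.77 ± 0.35 became 0.30 without deleted replicate 1. In that pool the Ctsk signal was higher than in the next deleted pool by 1.39 on the log2 scale, a gap over 1 that 0.255% of tested genes showed.

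Mmp12, the macrophage elastase gene, was dim but separated the groups. Its signals were 117.7, 177.7 and 26.3 in control replicates 1 to 3 and 453.4, 411.6 and 346.8 in deleted replicates 1 to 3. Every control pool lay below the signal of 271 that served as the filter on dim probe sets, and every deleted pool lay above it. Its mean over all pools fell below the filter, so it was not among the genes tested. In the fit without the filter its log2 fold change was 2.29 ± 0.68, an uncertain size because control replicate 3 was so low.

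Lgals3 did not follow these genes. It encodes galectin-3, a sugar-binding protein made by macrophages and also by epithelial cells. Its signals were 51865, 49405.7 and 72637.8 in control replicates 1 to 3 and 48517.7, 47383.7 and 50225.6 in deleted replicates 1 to 3. The groups overlapped, with control replicate 3 alone standing high, and the log2 fold change was -0.23 ± 0.15. Without control replicate 3 it was -0.056.

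Trem2 and Cd5l were at the dim end of the array. TREM2 is a lipid-sensing receptor of macrophages, and CD5L is a secreted scavenger receptor cysteine-rich protein that promotes macrophage survival. The brighter Trem2 probe set had signals of 79.3, 77.3 and 121.8 in control replicates 1 to 3 and of 16.2, 171.3 and 237.9 in deleted replicates 1 to 3, so the deleted pools lay on both sides of the controls. The other Trem2 probe set ran from 28.2 to 48.6 in controls and from 63.7 to 87.8 in deleted pools, without overlap. The Cd5l probe set ran from 40.8 to 199.1 in controls and from 47.7 to 142.9 in deleted pools, which overlap. All of these signals lay below 271. The log2 fold changes were -0.059 ± 0.96 and 0.89 ± 0.61 for the Trem2 probe sets and -0.27 ± 0.76 for Cd5l. With such standard errors the size of a difference was not measurable at this brightness.

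**Figure D1:**
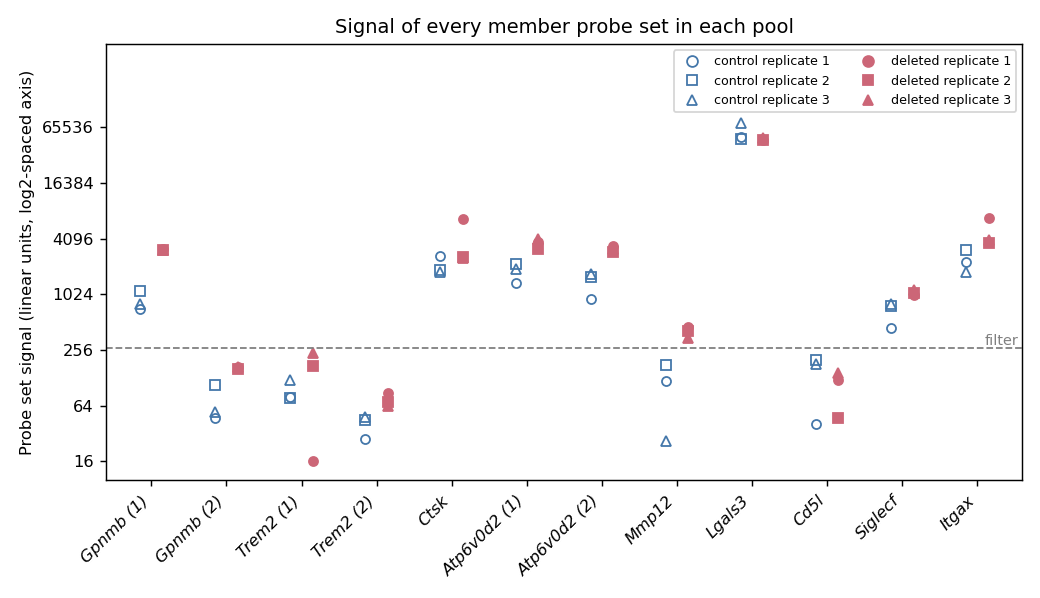
Signal of each of the 12 member probe sets (x axis, numbered from the brighter where a gene has more than 1) in each pool, on a log2-spaced axis, with open blue symbols for controls and filled red symbols for deleted pools. The dashed line is the filter at a signal of 271. The 3 deleted Gpnmb points coincide near 3132 above all controls, the Lgals3 groups overlap near the top of the plot, and Trem2 and Cd5l lie wholly below the line.

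Both general alveolar macrophage genes were higher in every deleted pool. Itgax encodes the integrin alpha chain CD11c, carried by alveolar macrophages and dendritic cells. Its signals were 2268.7, 3094.5 and 1791.5 in control replicates 1 to 3 and 6933.5, 3653.8 and 3935.2 in deleted replicates 1 to 3, a log2 fold change of 0.996 ± 0.27. Deleted replicate 1 stood highest, as it did for Ctsk, and without it the log2 fold change was 0.71.

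Siglecf encodes a sialic acid-binding receptor of mouse alveolar macrophages and eosinophils. Its signals were 447.5, 772.2 and 811.3 in control replicates 1 to 3 and 1002.5, 1059.4 and 1135.1 in deleted replicates 1 to 3. Control replicate 1 was low and the deleted pools were close together, with a log2 fold change of 0.70 ± 0.25 that became 0.43 without control replicate 1. The 4 eosinophil markers with a probe set (Prg2, Epx, Ccr3 and Il5ra) had signals between 11.6 and 268.3 on every array, all below 271.

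**Figure D2:**
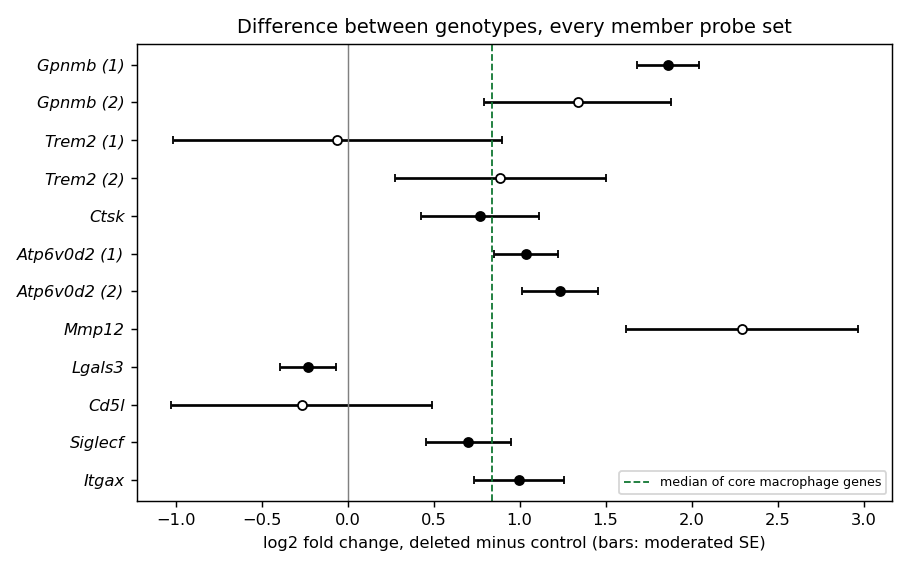
Log2 fold change, deleted minus control (x axis), of each member probe set, with the moderated standard error from the fit of all non-control probe sets as bars. Filled points passed the filter on dim probe sets and open points did not. The dashed line is the median of the core macrophage genes, 0.84. The bright Gpnmb probe set at 1.86 lies to its right, Siglecf, Ctsk, Itgax and Atp6v0d2 lie near it, and Lgals3 lies at -0.23.

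Across the array, 81 of the 12952 genes tested (0.625%) were higher in deleted pools at a Benjamini-Hochberg adjusted p under 0.05 in limma, and 3 (0.0232%) were lower. Of the 6 members tested, Gpnmb was among the 81 and Atp6v0d2, Ctsk, Lgals3, Itgax and Siglecf were not. At an unadjusted p under 0.05 there were 4 members higher (Gpnmb, Atp6v0d2, Itgax and Siglecf), where 6.05% of all tested genes were. The same 4 had groups that did not overlap with the deleted pools above, as 9.2% of tested genes had. Among all non-control probe sets 5.96% had that order of groups, and 8 of the 12 member probe sets did. The members were proposed with this contrast known, and nothing is read from these shares. Atp6v0d2 did pass with each array shifted to a common median, with arrays weighted by quality or with its probe sets averaged. It also passed with the replicate number as a block, without control replicate 2 or without control replicate 3. It did not pass with quantile normalization, no trend on intensity, no filter, a stricter filter or every probe set tested. Nor did it pass without control replicate 1 or without any single deleted pool.

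The isolates held macrophage RNA in both genotypes, and many core macrophage genes had higher signals in deleted pools. A core macrophage list of 18 genes with none of the members, chosen with earlier results of these data known, had 17 tested. Of these 7 rose in deleted pools and 0 fell (limma, adjusted over all genes), with a median log2 fold change of 0.84 where the median of all tested genes was -0.0049. The summed signal of the list ran from 40050 to 57134 in control pools and from 86481 to 101381 in deleted pools. Cd68, a lysosomal glycoprotein gene of macrophages, went from 1615 ± 80.7 to 3226 ± 42.5 (SD, n = 3 each, limma adjusted p = 0.0074). Mpeg1, the perforin-2 gene, rose by 1.37 ± 0.18 on the log2 scale, the complement genes C1qa and C1qb by 1.44 ± 0.22 and 1.17 ± 0.17, and the NADPH oxidase gene Cybb by 1.26 ± 0.17. Cd14 (1.04) and the mannose receptor gene Mrc1 (0.89) also rose. Fcgr3 (0.98), Fcer1g (0.84), Ms4a7 (0.84), Laptm5 (0.76), Cd53 (0.70) and Csf1r (0.68) did not pass. Nor did Adgre1 (0.52), Fcgr1 (0.40), Spi1 (0.32) and Mertk (0.15). Siglec1 lay below the filter. The count of 7 varied with the pools: it was 9 without control replicate 2 and 10 without control replicate 3, but 3 without control replicate 1, 1 without deleted replicate 3 and 0 without deleted replicate 1 or deleted replicate 2. With all 6 pools it was 1 in a fit with no trend on intensity and 11 with weighted arrays.

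The members were also set against the core macrophage genes of the same pool. For each pool the mean log2 signal of the core list was subtracted from the log2 signal of the member. The relative Gpnmb level was -0.99, -0.81 and -1.29 in control replicates 1 to 3 and -0.06, 0.06 and -0.03 in deleted replicates 1 to 3, a difference of 1.02 with no overlap. The relative Mmp12 level was -3.57, -3.46 and -6.23 in controls and -2.85, -2.87 and -3.19 in deleted pools, also without overlap. The Mmp12 values rest on control signals below the filter, with control replicate 3 far under the others, and all of these values come from the contrast that was known when the members were chosen.

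This subtraction lowers every gene in deleted pools by about 0.84, so a member with a log2 fold change under that value comes out below 0. Relative to the core genes the difference was 0.19 for Atp6v0d2 on its brighter probe set, 0.15 for Itgax, -0.074 for Ctsk and -0.14 for Siglecf, each with overlapping groups. The dimmer Atp6v0d2 probe set kept a difference of 0.39 without overlap. The dim Gpnmb probe set (0.49) overlapped between genotypes on this scale, as did Cd5l (-1.11) and the Trem2 probe sets (-0.90 for the brighter and 0.045 for the other). Relative Lgals3 was 5.21, 4.66 and 5.21 in control replicates 1 to 3 and 3.89, 3.98 and 3.98 in deleted replicates 1 to 3, lower by 1.07 with no overlap. The part that macrophage content has in any of these differences was not tested.

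**Figure D3:**
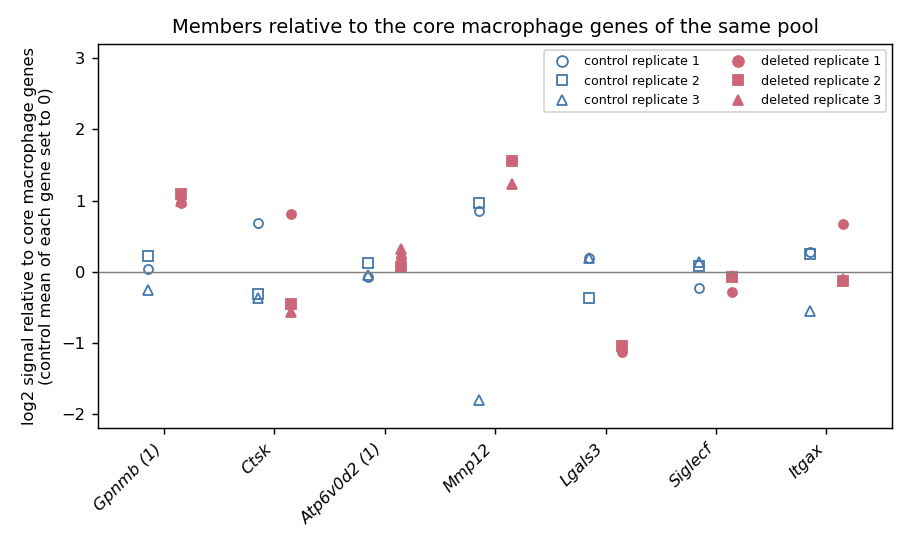
Log2 signal of the 6 tested members and of Mmp12 (x axis), minus the mean log2 signal of the core macrophage genes of the same pool, with each gene's control mean set to 0 (y axis). Open blue symbols are control pools and filled red symbols deleted pools. Gpnmb lies about 1.02 higher in deleted pools, Lgals3 about 1.07 lower, and Ctsk, the brighter Atp6v0d2 probe set, Siglecf and Itgax overlap between genotypes.

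Genes that identify resident alveolar macrophages gave mixed values. Of 18 listed, 14 were tested and 3 rose, none fell, with a median log2 fold change of 0.28. Marco, a scavenger receptor gene, rose by 2.26 ± 0.28 (limma adjusted p = 0.0087), from signals of 522.1 to 1229.9 in controls to 3280.3 to 4060.8 in deleted pools. Chil3, a chitinase-like gene, rose by 1.06 ± 0.16 and the carbonic anhydrase gene Car4 by 0.89 ± 0.14. Pparg, the nuclear receptor gene that alveolar macrophages need to form, had a log2 fold change of -0.074, and Fabp1, a fatty acid carrier gene, one of -1.10 (limma adjusted p = 0.33). Without deleted replicate 1 or deleted replicate 2 the count was 0, Marco included, and without deleted replicate 3 it was 1. It was also 0, Marco included, in a fit with no trend on intensity, and 5 with weighted arrays. Several genes of this list, among them Car4, Pparg, Cebpb and Il18, are also expressed by other lung cells. The median of the 4 foam members tested was 0.90, beside 0.85 for the 2 general alveolar macrophage members, 0.84 for the core macrophage list and 0.28 for this identity list. Over the mean of the controls, the foam median was 1.40, 0.58 and 0.73 in deleted replicates 1 to 3, where the core macrophage median was 0.98, 0.81 and 0.69 and the identity median 0.35, 0.25 and 0.27. The foam values lay above the core values in deleted replicate 1, below them in deleted replicate 2 and close to them in deleted replicate 3. Ctsk enters this median of 4 members, and its signal was 6782.3 in deleted replicate 1 against 2593.5 and 2518.6 in deleted replicates 2 and 3.

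Other genes of lipid-handling macrophages lay higher in most cases. Of 20 listed, 19 were tested, 4 rose and 0 fell, 18 had values above 0 and the median log2 fold change was 0.57. The 4 were Plin2, which coats lipid droplets (0.88 ± 0.12), the cholesterol exporter gene Abca1 (1.15 ± 0.18), the fatty acid carrier gene Fabp4 (1.07 ± 0.17) and Psap, the precursor of the lysosomal saposins (0.56 ± 0.10). Apoe stood at 1.11 ± 0.30, Pla2g7 at 1.45 ± 0.28 and Lipa, the lysosomal acid lipase gene, at 0.71 ± 0.13, none past the threshold. The count of 4 was 8 without control replicate 2, 1 without control replicate 1 or deleted replicate 3, and 0 without deleted replicate 1 or deleted replicate 2. It was 1 with no trend on intensity, 2 with probe sets averaged or with every probe set tested, and 8 with weighted arrays. Type II cells express several of these genes too, such as Abca1, Plin2, Fabp5 and Npc2, and core macrophage genes (median 0.84) were higher in the same pools, whose part in these values was not tested.

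Partners of the TREM2 receptor were measured where Trem2 itself was dim. Of 10 genes 9 were tested by limma and none passed. At an unadjusted p under 0.05 limma had 4 higher, with a median log2 fold change of 0.49. Tyrobp, the adaptor that carries the TREM2 signal, had signals of 2872.3 to 4254.7 in controls and 5662.1 to 7282.3 in deleted pools (0.85 ± 0.17, limma adjusted p = 0.070). The kinase genes Btk and Syk stood at 1.38 ± 0.38 and 0.66 ± 0.20. These genes serve other myeloid receptors as well. The count past the threshold was 3 without control replicate 2, and 2 without control replicate 3 or with weighted arrays.

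Gpnmb, Atp6v0d2 and Ctsk are known targets of MITF, TFEB and related factors, which also drive lysosome genes, and the other listed genes of that program had smaller values. Of 21 listed, 18 were tested by limma and none passed, 5 were higher before adjustment (unadjusted p under 0.05), and the median log2 fold change was 0.16. Ctsa stood at 0.59 ± 0.15, Neu1 at 0.42 ± 0.13 and Hexa at 0.60 ± 0.19. Among the factors Tfeb stood at 0.42 ± 0.15, Tfec at 0.55 ± 0.32, Mitf at 0.15 ± 0.18 and Tfe3 at 0.032 ± 0.13. Of the 18 tested, 17 had values above 0. In 7 the groups did not overlap, with the deleted pools above, as in 9.2% of all tested genes. The lysosomal genes Lipa (0.71), Ctsd (0.57), Psap (0.56), Ctsz (0.36), Ctsl (0.14), Ctsb (0.093) and Npc2 (0.063) were counted in the lipid-handling list instead. The part of these factors in any of the values was not tested.

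Gpnmb, Atp6v0d2 and Ctsk are also osteoclast genes. Of 11 other osteoclast genes 8 were tested by limma and none passed (median log2 fold change 0.22). The 1 gene higher at an unadjusted p under 0.05 was Acp5, the tartrate-resistant acid phosphatase gene, at 0.88 ± 0.27 with groups that overlapped. Car2 stood at 0.41 and Tcirg1 at 0.26. Dcstamp, Ocstamp and Calcr lay below the filter, where Dcstamp ran from 67.9 to 172.7 in controls and from 181.6 to 366.2 in deleted pools.

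**Figure D4:**
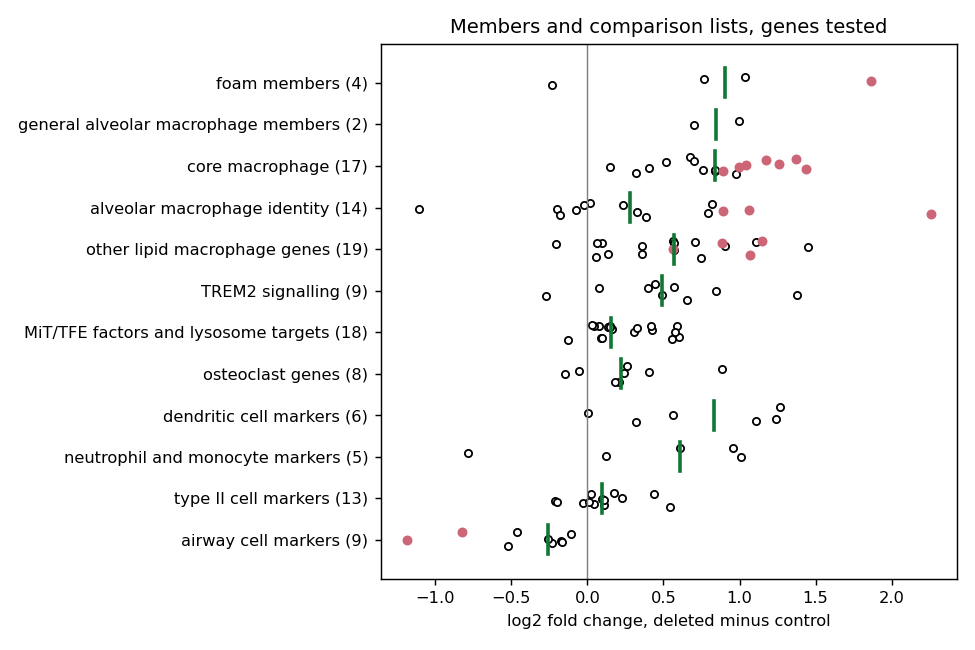
Log2 fold change, deleted minus control (x axis), of each tested gene in the member lists and in comparison lists (y axis, number tested in brackets), with filled red points for genes past the threshold in limma and green bars for list medians. Core macrophage genes have a median of 0.84 with 7 past the threshold, lysosome targets a median of 0.16 with none, and airway markers a median of -0.26.

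Relatives of the members within their own families gave few calls. Among the cathepsins listed as relatives of Ctsk, 8 were tested, all had values above 0 and none passed by limma. Ctss at 0.88 ± 0.18, Ctsh at 0.52 ± 0.16 and Ctsc at 0.41 ± 0.12 were the 3 higher at an unadjusted p under 0.05 in limma. The cathepsins Ctsd (0.57 ± 0.11) and Ctsa (0.59 ± 0.15) were counted in other lists, and neither passed. Ctsw stood at 0.50, Ctsz at 0.36, Ctso at 0.18, Ctsl at 0.14 and Ctsb at 0.093, and Ctsf lay below the filter. Among membrane-sector proton pump genes, 7 were tested, none passed by limma and the median log2 fold change was 0.083. Atp6v0d1 alone was higher at an unadjusted p under 0.05. Atp6v0a1 stood at 0.28, Tcirg1 at 0.26, Atp6v0b at 0.083, Atp6v0e at 0.065, Atp6v0e2 at -0.032 and Atp6v0a2 at -0.18, and Atp6v0a4 lay below the filter. Among matrix metalloproteases, Mmp19 stood at 1.25 ± 0.30 and Mmp3 at 0.79 ± 0.25, the 2 at an unadjusted p under 0.05 of 7 tested by limma, none of which passed. Mmp11 followed at 0.35, Mmp2 at 0.26, Mmp9 at -0.055, Mmp14 at -0.15 and Mmp23 at -0.17. Mmp7, Mmp8, Mmp10 and Mmp13 lay below the filter. The galectin gene Lgals9 stood at 0.74 ± 0.14, with groups that did not overlap, and was the 1 galectin higher at an unadjusted p under 0.05 in limma, where none passed. Lgals4 stood at 0.32, Lgals8 at 0.11, Lgals1 at 0.10, Lgals2 at -0.49 and Lgals12 at -0.76, all with groups that overlapped. Lgals3bp, the gene of a galectin-3-binding protein and not of a galectin, stood at 0.27, also with overlapping groups.

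Relatives of the surface receptors varied more. Itgb2, the beta chain that pairs with CD11c, rose by 1.29 ± 0.15 (limma adjusted p = 0.0074), from 3303.6 to 4671 in controls to 8384.2 to 9819 in deleted pools. It did not pass without deleted replicate 1, without deleted replicate 2 or in a fit with no trend on intensity. The alpha chain gene Itgal stood at 0.16 ± 0.16, and Itgam, which encodes CD11b, lay below the filter with signals between 73.7 and 379.4. Among Siglec genes Cd33 stood at 0.94 ± 0.25, Cd22, a B cell gene, at 0.84 ± 0.27, Siglecg at -0.23 and Mag, a myelin gene, at -0.58, none past the threshold, with Siglece, Siglech and Siglec1 below the filter. In the family of Trem2, Trem1 stood at 0.71 ± 0.27 on its brighter probe set, Trem3 at 0.13 and Treml1 at -0.87, with Treml2 and Treml4 below the filter. The Gpnmb relative Pmel stood at 0.16 ± 0.46. In the scavenger receptor cysteine-rich family of Cd5l, Marco was the 1 gene of 3 tested that rose, with Msr1 at 0.90 ± 0.23 and Cd5 at 0.052. Of 8 osteopontin receptor genes none passed by limma, with a median of 0.14. Cd44 (0.33 ± 0.10) was the 1 higher at an unadjusted p under 0.05. The integrin chain genes Itga4, Itgb3, Itgb1, Itga9, Itgav, Itgb5 and Itga8 stood between -0.17 and 0.34.

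Markers of other myeloid cells were measured as well. Of 6 dendritic cell genes tested by limma none passed, while before adjustment (p under 0.05) 4 were higher, and the median log2 fold change was 0.84, with Ccl22 at 1.24, Ccr7 at 1.27 and Cd207 at 1.11, while Zbtb46 stood at 0.007. With weighted arrays 3 of them passed. Their summed signal ran from 4011 to 5934 in controls and from 7825 to 9703 in deleted pools. Since CD11c is carried by dendritic cells too, these values stand beside that of Itgax, and their part in it was not tested. Of 5 neutrophil and monocyte genes tested by limma none passed. Before adjustment (p under 0.05) 3 were higher, S100a8 at 1.01, S100a9 at 0.95 and Ccr2 at 0.61. Ngp stood at 0.12 and Fcnb at -0.79, with overlapping groups, and below the filter Cxcr2 stood at -0.67 and Camp at -0.51.

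The high Ctsk and Itgax signals of deleted replicate 1 were looked for in the other lists. In that pool 0 of 17 core macrophage genes and 0 of 6 dendritic cell genes exceeded the next deleted pool by more than 0.5 on the log2 scale. Among the other listed genes Fabp1 (1.37), S100a9 (0.70), Lgals4 (0.64) and Ctss (0.63) did so. Cathepsin K is made by fibroblasts as well, and of 10 mesenchymal genes, a list added after these values were seen, 1 (Lum, 0.57) did so. Most of the others were lower in that pool than in the highest other deleted pool, among them Dcn (-1.37), Mgp (-1.25) and Col1a1 (-1.07). No mesenchymal gene passed by limma, and none did at an unadjusted p under 0.05 (median log2 fold change -0.073). Under the 0.5 mark in deleted replicate 1 lay Cd14 (0.47) and Cd53 (0.41) of the core list. Ccl22 (0.44) and Ccr7 (0.38) of the dendritic cell list did too. The mean log2 signal of the core list was 11.68, 11.55 and 11.63 in deleted replicates 1 to 3. What sets deleted replicate 1 apart was not tested.

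Profiles over the 6 pools were compared by root-mean-square difference of centred log2 signals. Among tested genes with a named symbol, the profile most like that of Gpnmb was that of the chemokine gene Ccl6 (0.12). Fcer2a, an IgE receptor gene, followed at 0.22, and then Slc5a1, a sodium-glucose transporter gene (0.25), Mpeg1 (0.25) and Pla2g7 (0.26). Ccl6 had signals of 4851.6 to 6032.4 in controls and 17840 to 20781.5 in deleted pools. For Itgax the nearest profiles were those of Tmem260 (0.14), Lin7b (0.18), Asprv1 (0.18), Kif20a (0.18) and Fgl1 (0.19), all dimmer genes that were also highest in deleted replicate 1. Profiles were ranked over all tested genes except RIKEN and Gm gene models, so close ones are found for any gene.

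The isolates carried the markers of type II cells. Of 14 listed genes 13 were tested by limma and none passed, with a median log2 fold change of 0.10. Muc1 (0.54 ± 0.23) was the 1 gene at an unadjusted p under 0.05, followed by Etv5 at 0.44 and Sftpd at 0.23. Of the 13 tested, 10 had values above 0, while Abca3 stood at -0.21, Sftpc at -0.20 and Cxcl15 at -0.029. The summed signal of the list ran from 878881 to 1069888 in controls and from 875652 to 1026419 in deleted pools. Airway genes were present as well, with 2 of 9 lower by limma (Ccdc153, -1.18, and Sox2, -0.83), a count that was 0 without any 1 of the deleted pools or with no trend on intensity, 1 without control replicate 1 and 3 without control replicate 2. Insig1 had signals of 2300.1 to 3325.2 in controls and 1252.5 to 1750.4 in deleted pools, but missed the threshold (-0.95 ± 0.18, limma adjusted p = 0.068), and Insig2 stood at -0.17 ± 0.16. Whether these probe sets lie in the deleted parts of the genes is unknown here.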

How the data were processed

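RNA of 6 pools was measured on Affymetrix arrays, 1 for each pool. The authors deposited signal intensity values for each probe set, on a linear scale. MAS5 is named in the submitters' processing notes, and its version is unknown here. Array medians lay between 426.4 and 478.8, and the mean of each array trimmed by 2% at both ends was about 1500, so the arrays had been brought to a common level.

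The log2 of each signal, floored at 1, was used with no further normalization. Probe sets with a mean log2 signal below the 40th percentile (log2 8.08, signal 271) were left out, and the brightest remaining probe set that named a single gene stood for that gene, which gave 12952 genes. This left 6 of the 10 members tested. The test was that of limma 3.58.1 under R 4.3.3 (eBayes with an intensity trend, two-sided, Benjamini-Hochberg over all genes tested, threshold 0.05). Log2 fold changes are the deleted mean minus the control mean. Standard errors of probe sets not tested as genes come from the same fit on all 45037 non-control probe sets. With 3 pools against 3, an exact two-sided permutation test cannot go below 0.1. The number of arrays limits the precision. Steps were tested on simulated data. Gene names came from the platform annotation. Figures were drawn with matplotlib 3.10.9.

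The members and the gene lists were chosen with earlier results of these data known. Named genes were all members with each probe set, and Insig1 and Insig2. From each list came the genes past the threshold, or else the 3 with the smallest p (whole families of 9 or fewer). The 5 profiles nearest to Gpnmb and to Itgax among genes with a named symbol were named too. Other genes are named for their role in a list and were chosen after their values were seen. The alternatives are given in the closing section.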

Additional observations from a re-analysis of the deposited data

How the results depend on the processing

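Of the 12952 genes tested, 84 passed, and the count moved with single pools, from 15 to 477 when 1 pool was left out (15 without deleted replicate 2, 477 without control replicate 2). Array weights gave 259, the replicate number as a block 132 and a fit with no trend on intensity 29. Relative to core macrophage genes it was 11057, since that setting lowers all other genes in deleted pools. The count of members past the threshold was 1 and ran from 1 to 3 when 1 pool was left out. It was 2 with a common median, with array weights, with the mean over probe sets and with the replicate block, where Atp6v0d2 joined Gpnmb. It was also 2 relative to core macrophage genes, where Lgals3 joined Gpnmb. That setting lowers Lgals3 in deleted pools as it does other genes. Before the subtraction its log2 fold change was -0.23 with overlapping groups. Without control replicate 2 the 3 were Gpnmb, Atp6v0d2 and Itgax. Gpnmb was past the threshold in each alternative run, with a log2 fold change between 1.02 and 2.05. The value of 1.02 was the one relative to core macrophage genes. All runs reuse the arrays whose signals were known when Gpnmb was chosen, so they describe its value and do not test it. Relative to core macrophage genes, a shift common to every gene turned Ctsk to -0.074 and Siglecf to -0.14. The foam median minus the identity median was 0.62, and between 0.46 and 0.76 when 1 pool was left out. The correlations of deviations of same-numbered pools were 0.074, 0.040 and 0.15. Pools with different numbers were not compared in this way, so whether the replicate numbers mark a shared batch is unknown here. Signal near background limits Trem2, Cd5l and Mmp12.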
